A study of Homo sapiens with 9 samples.

Results

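MET, AXL, MERTK, TYRO3, IGF1R and INSR are receptor tyrosine kinases that can carry growth signals past a blocked kinase, and they were examined here with the ligands HGF and GAS6 and the insulin receptor substrates IRS1 and IRS2. These 10 genes were chosen by name from the 20030 genes of the deposited tables. RNA of MHCC97L, a human hepatocellular carcinoma (HCC) cell line, and of 2 drug-resistant lines grown from it was sequenced, with 9 libraries divided equally among the lines (3 each). Wild-type MHCC97L libraries are labelled as untreated. MHCC97L-Src was obtained from MHCC97L by passage in rising doses of saracatinib, an inhibitor of the SRC family kinases, until it was stably resistant to 4 μmol/L. MHCC97L-Oxa is stably resistant to 2 μmol/L oxaliplatin, a platinum drug that damages DNA. Each resistance is therefore represented by 1 line from a single parent, all 3 lines were grown in medium with serum, and the labels name the drug as the treatment without saying whether it was present when RNA was taken. The study describes independent experiments, but the labels do not tie a library to its own culture, so p-values measure the spread between these libraries, which may be technical.

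MET is activated by HGF, which is normally made by cells of the surrounding stroma. AXL, TYRO3 and MERTK form the TAM family, whose ligands GAS6 and PROS1 bridge the receptor to phosphatidylserine on membranes. IGF1R and INSR bind insulin-like growth factors and insulin and pass the signal through IRS1 and IRS2 to PI3K and AKT, and MET, AXL and IGF1R are well known as receptors through which tumour cells escape kinase inhibitors.

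The clearest difference among these genes lay between the resistant lines: AXL was 3.03-fold lower, IRS2 was 2.15-fold lower and IGF1R was 1.37-fold lower in MHCC97L-Src than in MHCC97L-Oxa. Only the AXL call held under all 17 alternative settings. The call of IRS2 was lost in 6 of them and that of IGF1R, just past the threshold, in 12. Against wild-type MHCC97L, no member passed an adjusted p of 0.05 in either resistant line. Of all tested genes, 2.13% passed in MHCC97L-Src and 0.953% in MHCC97L-Oxa, and 4.64% passed between the resistant lines. TYRO3 had the highest mean per length in all 3 lines, overlapping IGF1R in MHCC97L, and HGF and MERTK were at or near 0 throughout. MET ranged from 99 to 1477 counts among the MHCC97L libraries, which overlapped both resistant lines.

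Between 16970486 and 18209213 reads were counted on genes per library. Libraries differed in how far their values leaned with the GC content of the genes. In MHCC97L replicate 1 the deviation from the mean of all libraries had a Spearman's rho of -0.78 with GC content across genes, against -0.26 to 0.70 in the other 8 libraries, and GC content and length described 66.1% of the variance of its deviations, against 3.63% to 47.4% in the others. Comparisons with MHCC97L were therefore also fitted without this library, which is given for some genes only, and with a correction for GC content and gene length. Over all tested genes, that correction moved the median log2 fold change from -0.16 to -0.05 for MHCC97L-Src and from -0.19 to -0.08 for MHCC97L-Oxa, each against MHCC97L. Leaving out a parental library changed the calls over all genes. With all libraries, 256 genes were called for MHCC97L-Src and 115 for MHCC97L-Oxa. Without replicate 2 these counts were 3419 and 2705, and without replicate 1 they were 672 and 2251. The labels give the tissue as liver, but of 8 liver markers none reached 10 counts in every library, ALB, APOB, TTR and AFP had 0 counts in all 9, and their summed level was 0.0586 to 0.398 FPKM. The epithelial keratins KRT8 and KRT18 summed to 1253 to 2668 FPKM, 3 leukocyte markers to 0 and 2 endothelial markers to 0.0638 to 0.174 FPKM. The libraries thus carried epithelial keratins without the defining hepatocyte transcripts.

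Levels of different genes are compared here per length, as FPKM (fragments scaled to transcript length and library size). In MHCC97L, TYRO3 stood at 19.8 ± 4.98 FPKM (SD, n = 3), IGF1R at 16.6 ± 2.67 and AXL at 13.3 ± 1.80, and the neighbours in this order overlapped. Below them, with no overlap, came GAS6 at 5.17 ± 0.759, IRS2 at 5.16 ± 1.63, MET at 4.23 ± 4.04, INSR at 2.08 ± 0.984 and IRS1 at 2.01 ± 0.334 FPKM, each overlapping the next. TYRO3, IGF1R and AXL were thus above MET, INSR and the substrates in the parental line, while MERTK and HGF stood below all of them. In MHCC97L-Oxa the order was TYRO3 (20.7 ± 0.424 FPKM), AXL (17.9 ± 0.118), IGF1R (14.6 ± 1.06), IRS2 (9.82 ± 0.838), GAS6 (9.26 ± 1.18), IRS1 (2.50 ± 0.398), INSR (1.82 ± 0.194) and MET (1.15 ± 0.205), and in this line only IRS2 and GAS6 overlapped among neighbours above MERTK and HGF. In MHCC97L-Src it was TYRO3 (18.4 ± 1.55 FPKM), IGF1R (10.3 ± 1.60), GAS6 (9.22 ± 1.04), AXL (5.62 ± 0.937), IRS2 (4.40 ± 1.44), INSR (2.11 ± 0.587), IRS1 (1.94 ± 0.511) and MET (0.761 ± 0.268), where IGF1R overlapped GAS6, AXL overlapped IRS2 and INSR overlapped IRS1. AXL was second in MHCC97L-Oxa, and in MHCC97L-Src it stood below GAS6 without overlap.

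**Figure D1:**
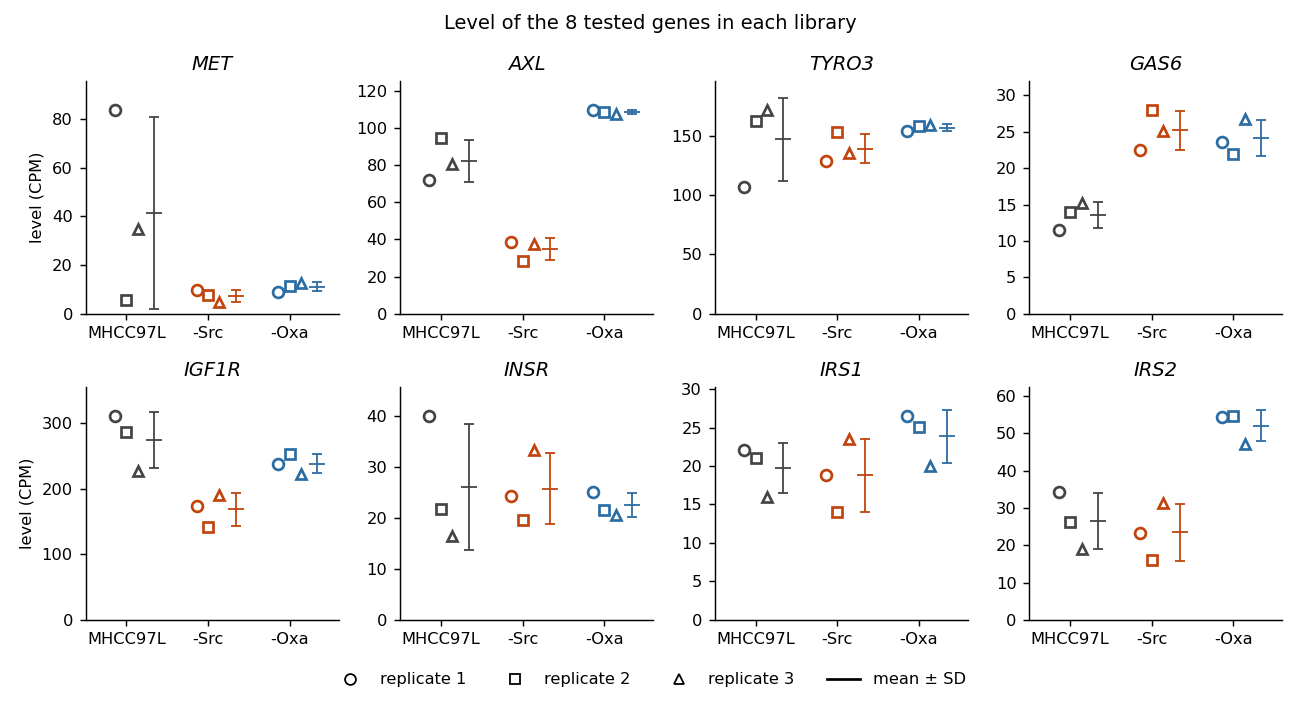
Level in CPM (counts scaled to the library total, vertical axes from 0) of the 8 tested genes in each library of MHCC97L, MHCC97L-Src and MHCC97L-Oxa. Symbols are replicates 1 to 3 and the bar beside them is the mean ± SD (n = 3); AXL of MHCC97L-Src lies below both other lines, IRS2 of MHCC97L-Oxa lies above both, and the MET levels of MHCC97L run from within the range of MHCC97L-Src to above all others.

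The start regions of the 3 genes that differed between the resistant lines are shown because these genes were lower together in MHCC97L-Src than in MHCC97L-Oxa. Each is the 250 bases before the most upstream start that RefSeq lists on GRCh38.p14, written 5′ to 3′ on the strand of the gene, with the GC box GGGCGG, the core of SP1 binding sites, in capitals wherever it occurs on either strand. AXL lies on chromosome 19 (chr19:41218973-41219222, + strand, 64.4% GC, 2 GC boxes), IRS2 on chromosome 13 (chr13:109786584-109786833, - strand, 76.4% GC, 5 GC boxes, overlapping ones counted separately) and IGF1R on chromosome 15 (chr15:98648289-98648538, + strand, 81.2% GC, 2 GC boxes).
AXL: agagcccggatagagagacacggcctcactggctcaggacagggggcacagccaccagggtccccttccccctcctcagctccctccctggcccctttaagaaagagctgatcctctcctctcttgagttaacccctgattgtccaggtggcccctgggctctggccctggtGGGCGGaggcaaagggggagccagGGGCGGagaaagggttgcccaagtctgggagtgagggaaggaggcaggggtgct
IRS2: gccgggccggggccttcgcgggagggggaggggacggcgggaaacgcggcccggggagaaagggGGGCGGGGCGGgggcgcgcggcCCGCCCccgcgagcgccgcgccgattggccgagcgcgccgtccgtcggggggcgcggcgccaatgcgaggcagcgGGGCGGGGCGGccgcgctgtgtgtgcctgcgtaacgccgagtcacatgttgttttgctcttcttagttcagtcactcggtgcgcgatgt
IGF1R: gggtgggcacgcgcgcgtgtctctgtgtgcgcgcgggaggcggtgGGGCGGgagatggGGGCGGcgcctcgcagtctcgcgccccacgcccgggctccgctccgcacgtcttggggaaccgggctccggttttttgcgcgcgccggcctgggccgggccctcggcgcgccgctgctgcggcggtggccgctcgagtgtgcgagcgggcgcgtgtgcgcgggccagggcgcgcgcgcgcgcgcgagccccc
The GC box was present in this window of 9 of the 10 members and of 42.2% of 27305 promoters of the same length, HGF being the member without it. The windows of these 9 lay at percentiles 66.5 to 97.8 of GC content among the promoters, and that of HGF at 32.8. Promoters of like GC content were not compared. The AP-1 letters TGANTCA were found in 1 member, TYRO3, and in 6.57% of promoters, and the TEAD letters GGAATG in 2 members, HGF and IRS1, and in 12% of promoters. Neither the FOXO letters GTAAACA (3.01% of promoters) nor the TATA box letters TATAAA (11.2%) occurred in any member, all motifs being searched on both strands. None of these letters beyond the GC box was shared by AXL, IRS2 and IGF1R in the bases searched.

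AXL (NCBI gene 558, chromosome 19, 41219203 to 41261766, + strand, GRCh38 as for all loci here) is the TAM receptor most often linked to drug resistance and to mesenchymal cell states. Listed as replicates 1, 2 and 3 as for every gene, it had 1272, 1678 and 1445 counts across the parental libraries, against 671, 477 and 657 across those of MHCC97L-Src and 1996, 1951 and 1906 across those of MHCC97L-Oxa. The 3 lines did not overlap, with MHCC97L-Src lowest and MHCC97L-Oxa highest. Scaled to the library total, this was 82.3 ± 11.4 CPM in MHCC97L (SD, n = 3), 34.7 ± 5.77 in MHCC97L-Src and 109 ± 1.20 in MHCC97L-Oxa. MHCC97L-Src was lower than MHCC97L-Oxa by a log2 fold change of -1.60 (SE 0.13, adjusted p = 1.1e-04 by edgeR's quasi-likelihood test). This call was made in every alternative, with an adjusted p of at most 0.00582. Against MHCC97L the log2 fold change was -1.19 (SE 0.26, adjusted p = 0.0614) in MHCC97L-Src, which did not pass the test. It passed after the correction for GC content and length, with a log2 fold change of -1.33 (SE 0.14, adjusted p = 0.00286). It also passed when MHCC97L replicate 1 (adjusted p = 0.00793) or replicate 2 (adjusted p = 0.0484) was left out. It did not pass without MHCC97L replicate 3 (0.150) or without MHCC97L-Src replicate 1 (0.212), replicate 2 (0.240) or replicate 3 (0.223). Of 17 alternatives, 9 gave the call and 8 did not. In MHCC97L-Oxa the log2 fold change against MHCC97L was 0.41 (SE 0.21, adjusted p = 0.265), and 0.33 (SE 0.10, adjusted p = 0.0817) after the correction.

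TYRO3 (NCBI gene 7301, chromosome 15, 41557675 to 41583586, + strand), the second TAM receptor, had 1894, 2892 and 3089 counts across the parental replicates, against 2240, 2599 and 2381 across those of MHCC97L-Src and 2801, 2840 and 2826 across those of MHCC97L-Oxa. MHCC97L replicate 1 was the lowest of all 9 libraries, and both resistant lines overlapped MHCC97L. The log2 fold change was -0.02 (SE 0.27, adjusted p = 0.970) in MHCC97L-Src and 0.09 (SE 0.25, adjusted p = 0.834) in MHCC97L-Oxa, each against MHCC97L. The resistant lines did not overlap each other in CPM, but their log2 fold change of -0.11 (SE 0.12, adjusted p = 0.654) did not pass the test. MERTK (NCBI gene 10461, chromosome 2, 111898479 to 112029561, + strand), the TAM receptor known best from macrophages, had 3, 0 and 1 counts across the parental replicates, against 5, 0 and 0 across those of MHCC97L-Src and 0 in each MHCC97L-Oxa library. A floor of 3 counts corresponds to 0.165 to 0.177 CPM at these depths, so MERTK was near or below the smallest detectable amount, and it was not tested.

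GAS6 (NCBI gene 2621, chromosome 13, 113820549 to 113864067, - strand) encodes the ligand shared by the 3 TAM receptors. It had 204, 248 and 273 counts across the parental replicates, against 390, 475 and 441 across those of MHCC97L-Src and 429, 393 and 476 across those of MHCC97L-Oxa. Every library of both resistant lines lay above every MHCC97L library, and the resistant lines overlapped. The mean level was 13.6 ± 1.85 CPM in MHCC97L (SD, n = 3), 25.2 ± 2.75 in MHCC97L-Src and 24.1 ± 2.47 in MHCC97L-Oxa. Its log2 fold change against MHCC97L was 0.96 (SE 0.34, adjusted p = 0.125) in MHCC97L-Src and 0.84 (SE 0.31, adjusted p = 0.201) in MHCC97L-Oxa, and neither passed the test. After the GC and length correction the values were 0.52 (SE 0.16, adjusted p = 0.0853) and 0.54 (SE 0.16, adjusted p = 0.0703). Without MHCC97L replicate 1, the MHCC97L-Oxa value was 0.78 with an adjusted p of 0.0225, and the MHCC97L-Src value was 0.85 with 0.0944. No other fit with 1 library left out passed, with adjusted p up to 0.393 in MHCC97L-Src and 0.474 in MHCC97L-Oxa. Both comparisons share the MHCC97L libraries. The log2 fold change between MHCC97L-Src and MHCC97L-Oxa was 0.12 (SE 0.17, adjusted p = 0.745). In GENCODE release 29, GAS6 shares 421 exonic bases with the antisense gene GAS6-AS1, IRS2 shares 115 and AXL shares 67 with unnamed antisense genes. The libraries were stranded, but the counting program is not given in the sources used here, so reads of such partners could not be told apart.

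IGF1R (NCBI gene 3480, chromosome 15, 98648539 to 98964530, + strand), the receptor for insulin-like growth factors, had 5485, 5076 and 4072 counts across the parental replicates, against 3012, 2401 and 3346 across those of MHCC97L-Src and 4341, 4527 and 3966 across those of MHCC97L-Oxa. All 3 MHCC97L-Src libraries were below the other 6, while MHCC97L and MHCC97L-Oxa overlapped. The means were 274 ± 43.3, 169 ± 24.8 and 238 ± 14.7 CPM (SD, n = 3) in that order. MHCC97L-Src was lower than MHCC97L-Oxa by a log2 fold change of -0.45 (SE 0.11, adjusted p = 0.0478), a call just past the threshold. It was -0.44 (SE 0.09, adjusted p = 0.0170) after the GC and length correction. The call was lost without MHCC97L-Src replicate 1 (adjusted p = 0.212) and without MHCC97L-Oxa replicate 1 (0.159), replicate 2 (0.257) or replicate 3 (0.155). In all, 12 of 17 alternatives lost it, among them DESeq2's size factors (adjusted p = 0.0640), total counts (0.0557), limma-trend on log2(FPKM + 1) (0.0922) and a joint fit of all 9 libraries (0.497). Against MHCC97L the log2 fold change was -0.64 (SE 0.21, adjusted p = 0.117) in MHCC97L-Src and -0.19 (SE 0.19, adjusted p = 0.533) in MHCC97L-Oxa. The corrected value for MHCC97L-Src was -0.58 (SE 0.16, adjusted p = 0.0665).

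INSR (NCBI gene 3643, chromosome 19, 7112255 to 7294034, - strand), the insulin receptor, had 705, 386 and 296 counts across the parental replicates, against 422, 332 and 585 across those of MHCC97L-Src and 458, 387 and 367 across those of MHCC97L-Oxa. MHCC97L replicate 1 was the highest of the 9 libraries, and the lines overlapped. The log2 fold changes were 0.06 (SE 0.38, adjusted p = 0.923) for MHCC97L-Src and -0.17 (SE 0.35, adjusted p = 0.776) for MHCC97L-Oxa against MHCC97L, and 0.24 (SE 0.19, adjusted p = 0.525) between the resistant lines. None of these differences passed the test, and with these standard errors small changes of INSR were not detectable.

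IRS1 (NCBI gene 3667, chromosome 2, 226731317 to 226799759, - strand), an adaptor that the active insulin and IGF receptors phosphorylate, had 389, 374 and 288 counts across the parental replicates, against 326, 238 and 413 across those of MHCC97L-Src and 482, 450 and 355 across those of MHCC97L-Oxa. The lines overlapped in every pair. The log2 fold changes were -0.01 (SE 0.34, adjusted p = 0.986) for MHCC97L-Src and 0.29 (SE 0.29, adjusted p = 0.532) for MHCC97L-Oxa against MHCC97L, and -0.30 (SE 0.19, adjusted p = 0.424) between the resistant lines.

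IRS2 (NCBI gene 8660, chromosome 13, 109752698 to 109786568, - strand), the second adaptor and the substrate known for its role in liver insulin signalling, had 604, 467 and 343 counts across the parental replicates, against 404, 271 and 550 across those of MHCC97L-Src and 989, 978 and 839 across those of MHCC97L-Oxa. MHCC97L-Oxa lay above the other 6 libraries, and MHCC97L-Src overlapped MHCC97L. The means were 26.5 ± 7.57 CPM in MHCC97L (SD, n = 3), 23.5 ± 7.66 in MHCC97L-Src and 52.0 ± 4.17 in MHCC97L-Oxa. MHCC97L-Src was lower than MHCC97L-Oxa by a log2 fold change of -1.11 (SE 0.20, adjusted p = 0.0116), and of -1.16 (SE 0.26, adjusted p = 0.0294) after the GC and length correction. The call was lost without MHCC97L-Src replicate 1 (adjusted p = 0.0514) and without MHCC97L-Oxa replicate 1 (0.0606) or replicate 2 (0.0743), and in 6 of 17 alternatives in all. Against MHCC97L, MHCC97L-Oxa had a log2 fold change of 1.00 (SE 0.27, adjusted p = 0.142), which did not pass the test, and MHCC97L-Src one of -0.11 (SE 0.35, adjusted p = 0.847). Without MHCC97L replicate 1 the MHCC97L-Oxa value was 1.25 (adjusted p = 0.00717), and without replicate 2 it was 1.12 (adjusted p = 0.0387). Of 17 alternatives for MHCC97L-Oxa against MHCC97L, 3 gave a call and 14 did not.

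Fibroblast markers were also lower in MHCC97L-Src than in MHCC97L-Oxa. The summed level of COL1A1, COL3A1, DCN and LUM was 15.4 to 31.4 FPKM in MHCC97L, 9.13 to 12.2 in MHCC97L-Src and 19.2 to 22.0 in MHCC97L-Oxa, and of the 4 genes 2 had at least 10 counts in every library. DCN, a proteoglycan of connective tissue, had 2256, 755 and 729 counts across the parental replicates, against 295, 163 and 446 across those of MHCC97L-Src and 1262, 1202 and 1082 across those of MHCC97L-Oxa. DCN was lowest in MHCC97L-Src, and MHCC97L replicate 1 was the highest library. COL1A1, a fibrillar collagen chain and the other well-counted marker, stood at 62.5 ± 2.40 CPM in MHCC97L (SD, n = 3), at 63.3 ± 3.50 in MHCC97L-Src and at 77.2 ± 5.24 in MHCC97L-Oxa. The summed level of the list overlapped between MHCC97L and MHCC97L-Oxa and did not overlap between MHCC97L and MHCC97L-Src. The part of these markers in the AXL and IRS2 results between the resistant lines was not tested. All libraries come from cultures of MHCC97L or of lines grown from it, so these transcripts are not read here as a count of fibroblasts. In bulk RNA, fewer cells that express a gene and less of its RNA per cell cannot be told apart.

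MET (NCBI gene 4233, chromosome 7, 116672390 to 116798386, + strand) had 1477, 99 and 628 counts across the parental replicates, against 167, 131 and 85 across those of MHCC97L-Src and 165, 207 and 227 across those of MHCC97L-Oxa. MHCC97L replicate 1 was the highest library and MHCC97L replicate 2 was below every MHCC97L-Oxa library, so that the parental line overlapped both resistant lines. The level in MHCC97L was 41.4 ± 39.4 CPM (SD, n = 3), against 7.40 ± 2.42 in MHCC97L-Src and 11.1 ± 1.89 in MHCC97L-Oxa. Its log2 fold change against MHCC97L was -2.34 (SE 0.79, adjusted p = 0.117) in MHCC97L-Src and -1.82 (SE 0.75, adjusted p = 0.215) in MHCC97L-Oxa, and neither passed the test. After the GC and length correction these were -0.97 (SE 0.55, adjusted p = 0.279) and -0.73 (SE 0.46, adjusted p = 0.324). Without MHCC97L replicate 1 they were -1.35 (adjusted p = 0.235) and -0.79 (adjusted p = 0.458). Without replicate 2 they were -2.80 (adjusted p = 0.00196) and -2.25 (adjusted p = 0.0121). The value of MET against MHCC97L therefore rested on which parental libraries entered. The longest MET transcript has a GC content of 42.4%, while those of the other 7 tested members range from 49.0% to 61.8%. The part of the GC lean of MHCC97L replicate 1 in the MET value was not tested beyond this correction. Between the resistant lines, which do not involve that library, the log2 fold change was -0.53 (SE 0.28, adjusted p = 0.318). HGF (NCBI gene 3082, chromosome 7, 81699008 to 81770438, - strand), the MET ligand, had 2, 0 and 0 counts in MHCC97L and 0 in each of the other 6 libraries, which allows up to 0.165 to 0.177 CPM at a floor of 3 counts. These intervals cover counting error only.

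**Figure D2:**
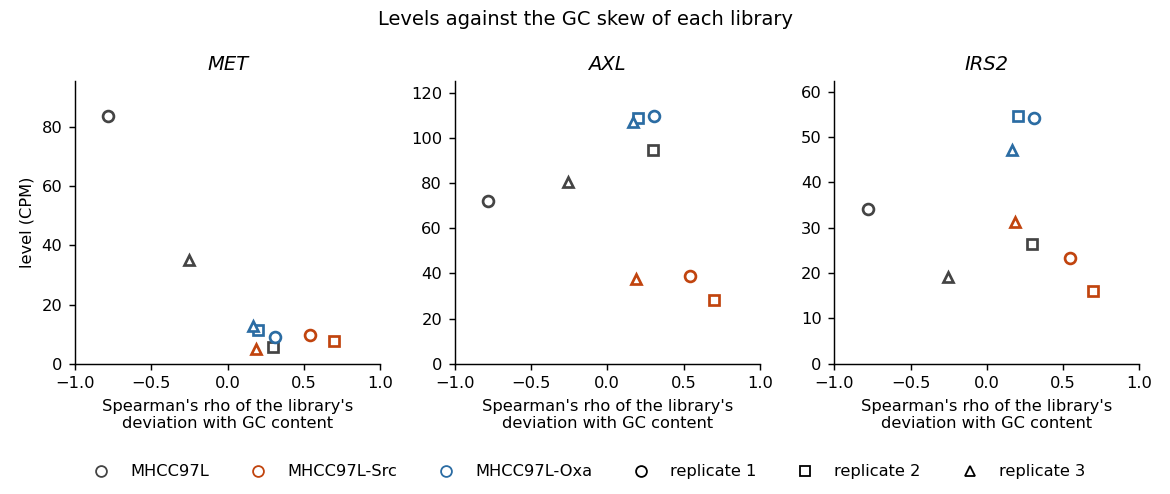
Level of MET, AXL and IRS2 in CPM (vertical axes from 0) against Spearman's rho between the deviation of a library from the 9-library mean and the GC content of the genes (horizontal axes), for the 9 libraries coloured by line. MHCC97L replicate 1, at -0.78, has the highest MET level, while AXL of MHCC97L-Src stays below all other libraries over its range of rho from 0.19 to 0.70.

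In counts of calls, 8 of the 10 members had enough counts to be tested in each comparison, all but HGF and MERTK. For MHCC97L-Src against MHCC97L, edgeR called 0 of the 8 at an adjusted p under 0.05, where 2.13% of the 12037 genes tested were called. At an unadjusted p under 0.05 there were 4 members (MET, AXL, GAS6 and IGF1R), against 29.5% of all genes, and DESeq2 called 3 (MET, AXL and GAS6), against 17.6%. After the GC and length correction 1 member, AXL, was called, against 10.6% of all genes, and 3 members (AXL, GAS6 and IGF1R) had groups that did not overlap, against 30.5% of all genes. For MHCC97L-Oxa against MHCC97L, edgeR called 0 of 8 members, against 0.953% of the 12064 genes tested. There were 3 members at an unadjusted p under 0.05 (MET, GAS6 and IRS2), against 22.4% of all genes, and DESeq2 called 2 (GAS6 and IRS2), against 7.4%. The correction gave 0 called members, against 12.9% of all genes, and 3 members (AXL, GAS6 and IRS2) did not overlap, against 29.5%. For MHCC97L-Src against MHCC97L-Oxa, edgeR called 3 of 8 members, AXL, IGF1R and IRS2, all lower in MHCC97L-Src, against 4.64% of the 11994 genes tested. The same 3 were called after the correction, against 9.62%, by DESeq2, against 7%, and at an unadjusted p under 0.05, against 19.5%, and 4 members (AXL, TYRO3, IGF1R and IRS2) did not overlap, against 27.6%. The median log2 fold change of the 8 members was -0.06, 0.19 and -0.38 in the 3 comparisons in this order, beside -0.16, -0.19 and -0.02 for all genes tested.

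**Figure D3:**
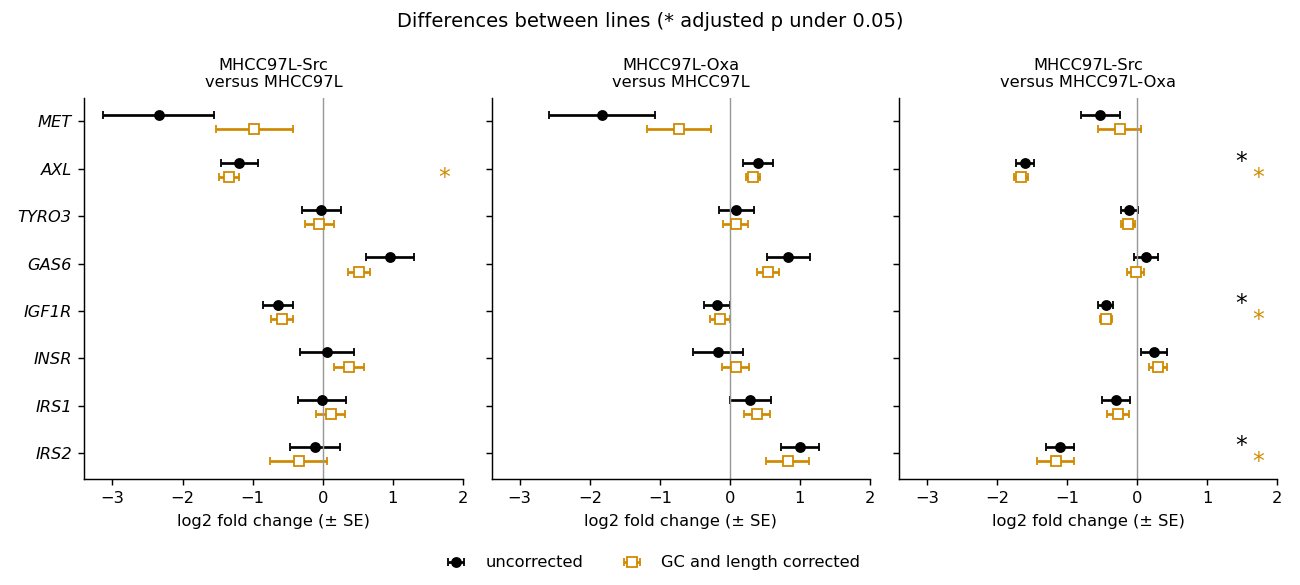
Log2 fold changes (horizontal axes, bars ± SE) of the 8 tested genes in the 3 comparisons, with filled circles for the uncorrected values, open squares for the values corrected for GC content and length, and asterisks for an adjusted p under 0.05 in the matching colour. Between MHCC97L-Src and MHCC97L-Oxa, AXL at -1.60, IRS2 at -1.11 and IGF1R at -0.45 carry asterisks, and the MET values against MHCC97L move towards 0 with the correction.

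Ratios of FPKM within a library compare partners of a family without reference to the library total. They are given as descriptions. TYRO3 stood to AXL at 1.19, 1.45 and 1.79 in MHCC97L, at 2.84, 4.46 and 2.85 in MHCC97L-Src and at 1.13, 1.16 and 1.19 in MHCC97L-Oxa. The TAM receptor pool of MHCC97L-Src was thus the one most weighted to TYRO3, with no overlap with the other lines. IRS2 stood to IRS1 at 3.04, 2.32 and 2.25 in MHCC97L, at 2.26, 2.08 and 2.39 in MHCC97L-Src and at 3.64, 3.93 and 4.30 in MHCC97L-Oxa. The substrate pool of MHCC97L-Oxa was the one most weighted to IRS2, above every library of the other lines. IGF1R stood to INSR at 5.91, 9.86 and 10.4 in MHCC97L, at 5.33, 5.34 and 4.26 in MHCC97L-Src and at 7.19, 8.65 and 8.28 in MHCC97L-Oxa. MHCC97L-Src had the lowest ratios, and MHCC97L and MHCC97L-Oxa overlapped.

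**Figure D4:**
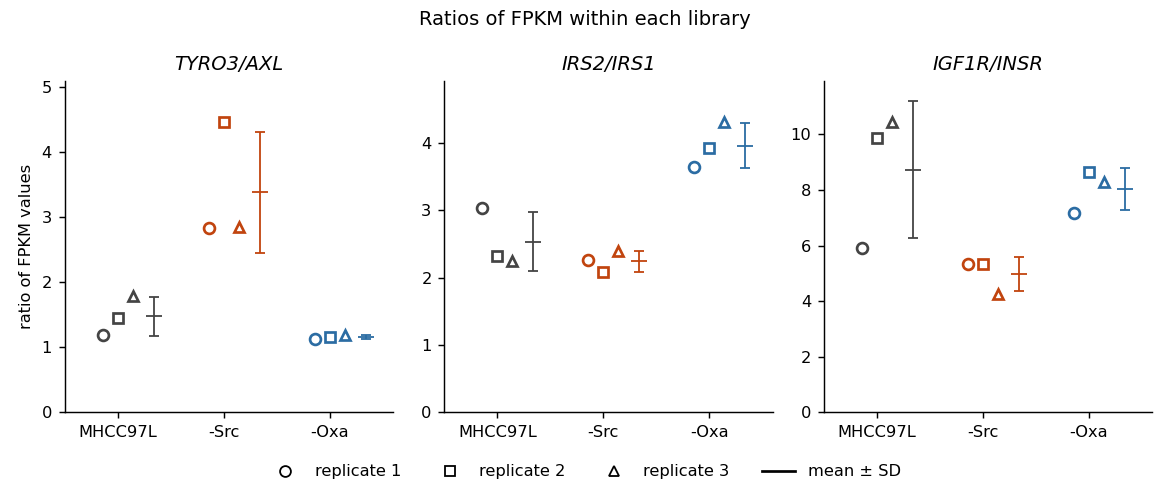
Ratios of FPKM values (vertical axes from 0) of TYRO3 to AXL, IRS2 to IRS1 and IGF1R to INSR within each of the 9 libraries, with symbols for replicates and bars for the mean ± SD (n = 3). TYRO3/AXL is highest in MHCC97L-Src (2.84 to 4.46), IRS2/IRS1 is highest in MHCC97L-Oxa (3.64 to 4.30) and IGF1R/INSR is lowest in MHCC97L-Src (4.26 to 5.34).

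Other genes of these pathways were taken from lists of 15 MET axis genes, 5 TAM axis genes, 18 insulin and IGF axis genes and 11 PI3K and AKT genes, 49 in all. Against MHCC97L, edgeR called 0 of the 41 tested genes in MHCC97L-Src, where 2.13% of all genes were called. In MHCC97L-Oxa it called 0 of 39, where 0.953% of all genes were called. After the GC and length correction 6 were called in MHCC97L-Src, 4 of them higher and 2 lower, and 8 in MHCC97L-Oxa, 6 higher and 2 lower, where 10.6% and 12.9% of all genes were called. Between the resistant lines 2 of 41 were called, both lower in MHCC97L-Src, and 6 after the correction, 2 higher and 4 lower, where 4.64% and 9.62% of all genes were called. At an unadjusted p under 0.05 there were 17, 11 and 14 list genes for MHCC97L-Src and MHCC97L-Oxa against MHCC97L and for MHCC97L-Src against MHCC97L-Oxa, against 29.5%, 22.4% and 19.5% of all genes. DESeq2 called 8, 6 and 3 of them, against 17.6%, 7.4% and 7% of all genes. In the same order, the median log2 fold change was 0.48, 0.48 and -0.06 for the MET axis, -1.65, -0.93 and -0.27 for the TAM axis, 0.08, 0.12 and -0.10 for the insulin and IGF axis and -0.62, -0.33 and -0.15 for the PI3K and AKT genes. After the correction these medians were 0.37, 0.38 and 0.06 for the MET axis, -0.11, 0.15 and -0.05 for the TAM axis, 0.02, 0.02 and -0.03 for the insulin and IGF axis and -0.09, -0.13 and 0.04 for the PI3K and AKT genes. The correction thus brought the low TAM axis and PI3K and AKT medians against MHCC97L close to 0, and turned the sign of the TAM axis median in MHCC97L-Oxa.

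Of the 13 tested MET axis genes, those with the smallest p against MHCC97L were MST1R, the receptor RON that is the closest relative of MET, and SPINT1, an inhibitor of the proteases that activate HGF. MST1R had 214, 260 and 284 counts across the parental replicates, against 657, 597 and 611 across those of MHCC97L-Src and 507, 498 and 457 across those of MHCC97L-Oxa. SPINT1 had 303, 459 and 461 counts across the parental replicates, against 955, 866 and 939 across those of MHCC97L-Src and 1014, 1014 and 1080 across those of MHCC97L-Oxa. In both genes every resistant library was above every parental one. MST1R had a log2 fold change of 1.41 (SE 0.31, adjusted p = 0.0622) in MHCC97L-Src and 0.94 (SE 0.29, adjusted p = 0.178) in MHCC97L-Oxa, short of the test, and 1.10 (adjusted p = 0.00557) and 0.78 (adjusted p = 0.0139) after the correction. SPINT1 had 1.27 (SE 0.30, adjusted p = 0.0769) and 1.33 (SE 0.28, adjusted p = 0.0740), and after the correction 0.93 (adjusted p = 0.00835) and 1.12 (adjusted p = 0.00348). By DESeq2 both genes passed in both lines. For MHCC97L-Src against MHCC97L-Oxa, MST1R had 0.46 (SE 0.14, adjusted p = 0.0969) and PTPRJ, a phosphatase that acts on MET, had -0.48 (SE 0.17, adjusted p = 0.148). After the correction MST1R had 0.33 (adjusted p = 0.0800), which did not pass, and PTPRJ had -0.41 (adjusted p = 0.0338), which did. Without MHCC97L replicate 1, SPINT1 passed in MHCC97L-Src (1.10, adjusted p = 0.0142) and in MHCC97L-Oxa (1.22, adjusted p = 0.00174), as did MST1R (1.30, adjusted p = 0.0124, and 0.89, adjusted p = 0.00736). Without MHCC97L replicate 2, SPINT1 passed in both lines (adjusted p = 0.0147 and 0.0160) and MST1R in MHCC97L-Src (adjusted p = 0.0143). Of 17 alternatives against MHCC97L, MST1R passed in 8 for MHCC97L-Src and 4 for MHCC97L-Oxa, and SPINT1 in 9 and 10. Without MHCC97L-Src replicate 3, MST1R (adjusted p = 0.0349) and PTPRJ (adjusted p = 0.0368) passed between the resistant lines.

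In the TAM axis list, all 5 genes were tested. VKORC1, the vitamin K reductase needed for the gamma-carboxylation of GAS6 and PROS1, had 1804, 2959 and 3402 counts across the parental replicates, against 5552, 6498 and 4895 across those of MHCC97L-Src and 5723, 5679 and 5730 across those of MHCC97L-Oxa. The resistant libraries were all above the parental ones. Its log2 fold change was 1.17 (SE 0.32, adjusted p = 0.0919) in MHCC97L-Src and 1.06 (SE 0.28, adjusted p = 0.131) in MHCC97L-Oxa, and 0.65 (adjusted p = 0.0103) and 0.70 (adjusted p = 0.00652) after the correction. ADAM10, a protease that sheds AXL and other receptors, had 903, 137 and 478 counts across the parental replicates, against 151, 135 and 148 across those of MHCC97L-Src and 150, 184 and 229 across those of MHCC97L-Oxa. As with MET, the MHCC97L libraries spread over the range of the others. Its log2 fold change of -1.65 (SE 0.58, adjusted p = 0.124) in MHCC97L-Src became -0.11 (adjusted p = 0.709) after the correction, and that of -1.38 (SE 0.58, adjusted p = 0.217) in MHCC97L-Oxa became -0.21 (adjusted p = 0.423). In MHCC97L-Src relative to MHCC97L-Oxa, PROS1, the other TAM ligand, had -0.77 (SE 0.26, adjusted p = 0.130) and ADAM17, a related protease, -0.46 (SE 0.20, adjusted p = 0.239). After the correction these were -0.47 (adjusted p = 0.301) and -0.13 (adjusted p = 0.726). VKORC1 passed without MHCC97L replicate 1 (adjusted p = 0.030 in MHCC97L-Src and 0.00150 in MHCC97L-Oxa) and without replicate 2 (0.0211 and 0.0258), and ADAM10 without replicate 2 (0.00396 and 0.0162). Over all genes, 672 and 2251 were called without replicate 1 and 3419 and 2705 without replicate 2, against 256 and 115 with all libraries.

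In the insulin and IGF axis, the uncorrected test called 2 genes lower in MHCC97L-Src than in MHCC97L-Oxa. They were IGFBP3, the main carrier of insulin-like growth factors in serum, and IGFBP7, a secreted protein of the same superfamily with low affinity for them. IGFBP3 had 406, 563 and 594 counts across the parental replicates, against 238, 258 and 145 across those of MHCC97L-Src and 660, 461 and 531 across those of MHCC97L-Oxa. MHCC97L-Src was below the other 6 libraries. Its log2 fold change between the resistant lines was -1.24 (SE 0.26, adjusted p = 0.0249), and -1.16 (adjusted p = 0.0505) after the correction, where the call was lost. It was also lost without MHCC97L-Src replicate 1 (adjusted p = 0.0853) and without MHCC97L-Oxa replicate 1 (0.108), replicate 2 (0.0676) or replicate 3 (0.0780). In all, 8 of 17 alternatives lost the call of IGFBP3. IGFBP7 had 1632, 2759 and 2710 counts across the parental replicates, against 2636, 2921 and 2676 across those of MHCC97L-Src and 5342, 6125 and 5850 across those of MHCC97L-Oxa. MHCC97L-Oxa was above the other 6 libraries. The log2 fold change between the resistant lines was -0.96 (SE 0.12, adjusted p = 0.00206), and -0.98 (adjusted p = 0.00138) after the correction. The call of IGFBP7 held without each of the 6 libraries in turn, and 1 of 17 alternatives lost it.

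Against MHCC97L, IGFBP7 in MHCC97L-Oxa had 1.27 (SE 0.27, adjusted p = 0.0736; 1.05 and adjusted p = 0.00893 after the correction). IGFBP4, a binding protein that holds insulin-like growth factors away from their receptor, had 1.05 (SE 0.26, adjusted p = 0.112; 0.73 and adjusted p = 0.00507 after the correction) in the same line. In MHCC97L-Src, ENPP1, a membrane protein that inhibits INSR, had -2.54 (SE 0.70, adjusted p = 0.0944) and IGFBP5 had 1.85 (SE 0.53, adjusted p = 0.101), with -1.21 (adjusted p = 0.0370) and 1.86 (adjusted p = 0.0408) after the correction. Without MHCC97L replicate 2, ENPP1 (adjusted p = 0.00367) and IGFBP5 (0.0199) passed in MHCC97L-Src and IGFBP4 (0.0215) and IGFBP7 (0.0137) in MHCC97L-Oxa, and without replicate 1 IGFBP4 (0.00199) and IGFBP7 (0.00151) did. Without replicate 2, 3419 and 2705 genes were called over all genes in these lines, and without replicate 1, 2251 in MHCC97L-Oxa. IGFBP5 was low, with 3, 9 and 6 parental counts, 22, 17 and 23 for MHCC97L-Src and 8, 7 and 1 for MHCC97L-Oxa. Its libraries of MHCC97L-Src were above all others. Of the ligands of this axis, INS had 0 counts in every library, IGF1 had 0 to 5 and IGF2 had 9 to 30, against 2401 to 5485 for IGF1R and 296 to 705 for INSR. Transcripts of the ligands were thus absent or few beside those of both receptors.

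**Figure D5:**
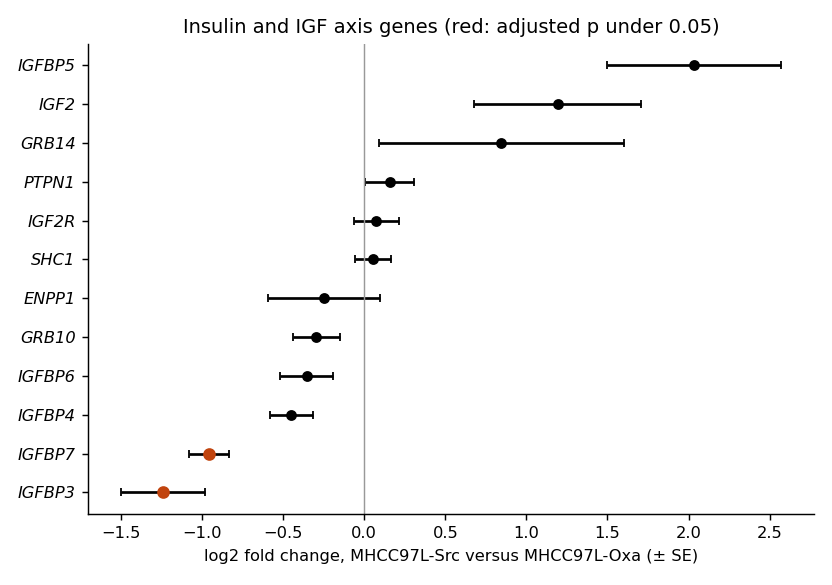
Log2 fold changes between MHCC97L-Src and MHCC97L-Oxa (horizontal axis, bars ± SE) of the 12 tested genes of the insulin and IGF axis list, ordered by size, with red points for an adjusted p under 0.05. IGFBP3 at -1.24 and IGFBP7 at -0.96 are the red points.

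Of the 11 PI3K and AKT genes, all were tested. EdgeR called 0 of them in any comparison, against 2.13%, 0.953% and 4.64% of all genes in the order above. At an unadjusted p under 0.05 there were 4, 1 and 4, against 29.5%, 22.4% and 19.5% of all genes. DESeq2 called 2, 0 and 0, against 17.6%, 7.4% and 7% of all genes. Among those with the smallest p against MHCC97L were the catalytic subunits of PI3K, PIK3CA in MHCC97L-Src and PIK3CB in MHCC97L-Oxa. PIK3CA had -1.96 (SE 0.65, adjusted p = 0.115) and after the correction -0.49 (adjusted p = 0.511). PIK3CB had -1.52 (SE 0.66, adjusted p = 0.221) and after the correction -0.30 (adjusted p = 0.399). Neither passed the test. Without MHCC97L replicate 2 they did, PIK3CA in MHCC97L-Src (adjusted p = 0.00689) and PIK3CB in MHCC97L-Oxa (adjusted p = 0.0292). In those fits 3419 and 2705 genes were called over all genes, against 256 and 115 with all libraries. In MHCC97L-Src relative to MHCC97L-Oxa, AKT1, a kinase downstream of PI3K, had 0.41 (SE 0.15, adjusted p = 0.157) and PIK3R2, a regulatory subunit of PI3K, 0.32 (SE 0.12, adjusted p = 0.170). After the correction AKT1 had 0.28 (adjusted p = 0.0403), which passed, and PIK3R2 had 0.17 (adjusted p = 0.133), which did not. Without MHCC97L-Src replicate 3, AKT1 and PIK3R2 both passed, with adjusted p = 0.0156 and 0.0358, where 1617 genes were called over all genes, against 556 with all libraries.

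For each tested member, the gene most alike in log2 CPM over the 9 libraries was found among 11022 genes with at least 10 counts in every library, as a description. These values are scaled to library size but not corrected for the lean with GC content, which differed between the libraries. The part of that lean in these correlations was not tested. MET was nearest to SBF2 (Pearson's r 0.997), AXL to PMEPA1 (0.986), TYRO3 to TAGLN2 (0.991) and GAS6 to SPATA2L (0.991). IGF1R was nearest to CLTCL1 (0.983), INSR to RFXAP (0.985), IRS1 to MARCKS (0.957) and IRS2 to SERPINE2 (0.987).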

How the data were processed

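RNA of 9 libraries, 3 per line, was grouped by the line named in the labels. The authors deposited raw counts of reads per gene and, in a second table, FPKM values for the same 20030 genes. Per the labels the libraries were stranded, poly(A)-selected and read from both ends. The submitters' processing notes name Trimmomatic 0.36, HISAT2 2.2.1.0 and the build GRCh38.p12, and the program that counted the reads is not given in the sources used here. The FPKM values deposited by the authors are no plain rescaling of the counts, with 245 to 297 genes in each library counted yet listed at an FPKM of 0.

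Library totals were 16970486 to 18209213 counts, and a floor of 3 counts was taken as the smallest detectable amount. The floor covers counting error alone, because PCR copies without molecular identifiers are not separate molecules. The quasi-likelihood test of edgeR was run on the 6 libraries of each pair of lines, with filterByExpr (minimum count 10), TMM normalization and Benjamini-Hochberg adjustment over all genes tested. A standard error is the log2 fold change over the square root of its F statistic. GC content and length were those of the longest GENCODE release 29 transcript, matched for 19343 of 20030 genes, 13518 by accession and 5825 by symbol. For the correction, deviations of each library were fitted by natural splines (5 degrees of freedom per property) and entered edgeR as offsets. Alternatives were DESeq2, its size factors or total counts, no filter, all 9 libraries in one fit, the replicate number as a block, limma-trend on log2 FPKM values with a pseudocount of 1 or 0.1, and each library left out in turn. Loci are those of GENCODE on GRCh38, and promoter sequences and start sites are from RefSeq on GRCh38.p14. All 10 members matched a RefSeq promoter, and where a gene had several starts the most upstream one was used. Protein sequences were not used here.

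All 10 members are named, as are the pathway genes called in any comparison, otherwise at most 2 per list and comparison with the smallest p, and the gene most alike to each tested member. A gene that this rule names is not reported here. In addition IGF1, INS, IGF2 and the marker genes named are given as levels, chosen after their values were seen. The members and lists were chosen with earlier results of these data known. The scripts were tested on simulated data. Tests ran in R 4.3.3 with DESeq2 1.42.0, limma 3.58.1 and edgeR 4.0.16, and tables and figures were made in Python 3.11.15 with matplotlib 3.10.9 and pandas 2.3.3.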

Additional observations from a re-analysis of the deposited data

Results flagged for a closer look

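The effects of the resistant lines, each set against the same MHCC97L libraries, differed from each other by the direct edgeR test of MHCC97L-Src against MHCC97L-Oxa for 3 members and 2 pathway genes. For AXL the log2 fold change was -1.60, for IRS2 it was -1.11 and for IGF1R it was -0.45. Of the binding proteins, IGFBP3 had -1.24 and IGFBP7 had -0.96. Groups of 3 libraries are too small for a test of single outlying libraries.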

How the results depend on the processing

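AXL kept its direction and its call between the resistant lines in every alternative run, while the call of IGF1R was lost in 12 of 17 alternatives and that of IRS2 in 6 of 17. Over 408 member values under alternatives, 337 kept direction and side of the threshold, 18 lost and 22 gained a call, and 31 changed sign. Of 402 values of the named pathway genes, 315 kept both, 9 lost and 78 gained a call, and 0 changed sign. Those genes were named for a call or a small p in the same data, so their kept signs do not measure stability. With 3 libraries per line, a GC lean in the parental line and standard errors of 0.10 to 0.79, small changes of the members were not detectable, and the cause of the differences between settings was not tested.

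The numbers of genes called for MHCC97L-Oxa and MHCC97L-Src against MHCC97L, and between the resistant lines, were 115, 256 and 556 in the main test and changed as follows. DESeq2's Wald test called 893, 2114 and 839 genes, and 2, 3 and 3 members. DESeq2's size factors in edgeR gave 146, 310 and 514 genes, with 0, 0 and 2 members. The GC and length correction gave 1558, 1277 and 1154 genes, with 0, 1 and 3 members, and together with the replicate block 599, 220 and 473 genes, with 0, 1 and 1 members. All 9 libraries in one fit gave 495, 1956 and 86 genes, with 0, 4 and 1 members. Limma-trend on log2(FPKM + 0.1) gave 273, 323 and 484 genes, with 0, 1 and 2 members, on log2(FPKM + 1) 260, 280 and 501 genes, with 0, 1 and 2 members, and without a filter 242, 274 and 437 genes, with 0, 0 and 1 members. Without a filter on counts there were 163, 702 and 610 genes, with 0, 0 and 3 members. Total counts gave 211, 256 and 573 genes, with 0, 1 and 2 members. Requiring an absolute log2 fold change over 1 and an unadjusted p under 0.05 gave 1951, 2966 and 481 genes, with 1, 2 and 2 members. Leaving out 1 library gave 2 to 2705, 22 to 3419 and 167 to 1617 genes, with 0 to 2, 0 to 2 and 1 to 3 members. Without MHCC97L replicate 1 there were 2251 and 672 genes, without replicate 2 there were 2705 and 3419, and without replicate 3 there were 2 and 22 for MHCC97L-Oxa and MHCC97L-Src against MHCC97L.

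The replicate block alone gave 92, 988 and 406 genes, with 0, 1 and 2 members. Libraries of the same number did not deviate together, with a mean correlation of -0.0877 for MHCC97L-Src and 0.0315 for MHCC97L-Oxa with MHCC97L and -0.115 between the resistant lines (single pairs from -0.650 to 0.444).

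Sign changes were seen in these members, each in a comparison where edgeR's test did not call it. For MHCC97L-Src against MHCC97L, TYRO3 was 0.078 with DESeq2's size factors and its Wald test and 0.017 with the replicate block, INSR was -0.018 with total counts, and IRS1 was 0.076 with the size factors, 0.077 with the Wald test, 0.013 without a filter and 0.12 with the GC correction with or without the block. For MHCC97L-Oxa against MHCC97L, INSR was 0.081 with the GC correction and 0.10 with the block added. Between the resistant lines GAS6 was -0.021 with the GC correction, -0.019 with the block added, -0.0049 on log2(FPKM + 1) with or without a filter and -0.0052 on log2(FPKM + 0.1). With 1 library left out, TYRO3 ranged from -0.20 to 0.15, INSR from -0.17 to 0.47, IRS1 from -0.14 to 0.15 and IRS2 from -0.31 to 0.10 in MHCC97L-Src, TYRO3 from -0.037 to 0.29 and INSR from -0.40 to 0.28 in MHCC97L-Oxa, and GAS6 from -0.028 to 0.21 between the resistant lines.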
